A study of Homo sapiens with 16 samples.

Results

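The footprint response of young WI-38 cells to heat shock was described over all genes, from ribosome footprint counts alone and without dividing by RNA. WI-38 is an established fibroblast line from human lung with a finite lifespan in culture. The members were chosen by label: the 2 Ribo-seq libraries of young heat-shocked cells and the 2 of young control cells, 4 of the 16 libraries of the series. Both groups held cells at passage 24 that had been deprived of serum for 24 h and then given serum back for 24 h, and the labels name no other agent or genetic change. The heat-shocked cells were kept for 2 h at 44 °C, which the labels give as 440C, taken here for a degree sign gone missing, and the control cells were not heated. Senescent cells at passage 36 and RNA-seq libraries of the same conditions are used only for comparison. The labels do not say whether replicates were separate cultures, so p values measure only the spread between libraries, which may be technical.

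Ribosome footprints are the short stretches of mRNA that a translating ribosome shields from nuclease, so their number on a gene follows both the amount of its mRNA and how often ribosomes load on it. Heat unfolds proteins, and the transcription factor HSF1 then switches on genes for molecular chaperones, the proteins that hold and refold unfolded chains. HSF1 binds the heat shock element, inverted repeats of the letters GAA. Heat and other stresses also lower translation initiation at most mRNAs, while some mRNAs with special leader sequences escape. In fibroblasts, which secrete collagen and other matrix proteins, collagen folding has a chaperone of its own.

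Of 19201 genes in the table, 4987 were at 0 counts throughout the 4 young libraries and 11288 had enough counts to be tested. The heat-shocked libraries held 5356955 and 5566710 counts assigned to genes, and the control libraries 7790636 and 9104077. Levels are given as CPM, counts scaled to library size with the trimmed mean of M values, or as TPM, the authors' length-scaled level, where genes are compared with each other. Shares are percent of all counts of a library, without the trimmed-mean scaling. Collagens and other fibroblast markers were abundant: the summed TPM of 10 markers was 9648 and 9761 after heat and 10750 and 10476 in control, and their share of footprint counts was 1.62% and 1.54% after heat and 2.69% and 2.60% in control. The defining blood markers summed to at most 1.38 TPM in any of the 4 libraries, and 5 and 4 of the 6 were at 0 after heat and 4 and 6 in control. The 8 epithelial markers summed to 85.9 and 85.5 TPM after heat and 79.7 and 88.0 TPM in control, with 4 and 3 at 0 after heat and 4 and 4 in control. The 4 endothelial markers in the table summed to 12.7 and 11.7 TPM after heat and 10.5 and 7.48 TPM in control, with 2 and 2 at 0 after heat and 1 and 1 in control. The part of other cell types in the results was not tested. In bulk libraries, fewer cells of a type and less RNA per cell cannot be told apart.

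The control libraries stood unusually close to each other. Over genes with at least 10 counts they differed by a chi-square of 1.72 per degree of freedom, where the 2 heat-shocked libraries differed by 25.4 and other Ribo-seq pairs by 16.5 and 36.5. The spread of the control pair was still above sampling noise, which does not show that they are independent samples. The main test kept them as 2 samples. Counts are also given with the pair taken as 1 sample, where the heat group alone informs the young spread. Whether they are separate preparations was not tested.

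Heat changed footprints on 130 of the 11288 genes tested (1.15%; edgeR's quasi-likelihood test, Benjamini-Hochberg adjusted p under 0.05): 87 rose (0.771%) and 43 fell (0.381%). An unadjusted p under 0.05 was found for 1808 genes. The genes that rose were led by chaperones, with ferritins, stress-response transcription factors and splicing kinases among them, and those that fell were led by PABPC1, the main cytoplasmic poly(A)-binding protein. Rises spanned 1.01 to 12.26 on the log2 scale with a median of 2.28, and falls spanned −1.03 to −4.06 with a median of −1.92. With the control pair as 1 sample 27 genes passed, 24 higher and 3 lower, and all 27 were among the 130. Leaving out 1 young library gave 51 calls without heat replicate 1, 77 without heat replicate 2 and 27 without either control. Without senescent heat replicate 1 or 2, which enter through the shared spread, there were 270 and 275. The genes that rose held 9.63% and 9.59% of footprint counts after heat and 2.25% and 2.27% in control, and those that fell held 0.245% and 0.326% after heat and 1.37% and 1.33% in control. Values are relative to the bulk of genes, whose median log2 change was −0.01, so a change of translation shared by all genes is not seen. In 59.0% of all tested genes both heat libraries lay on one side of both controls, so groups that do not overlap are common in these 4 libraries.

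**Figure D1:**
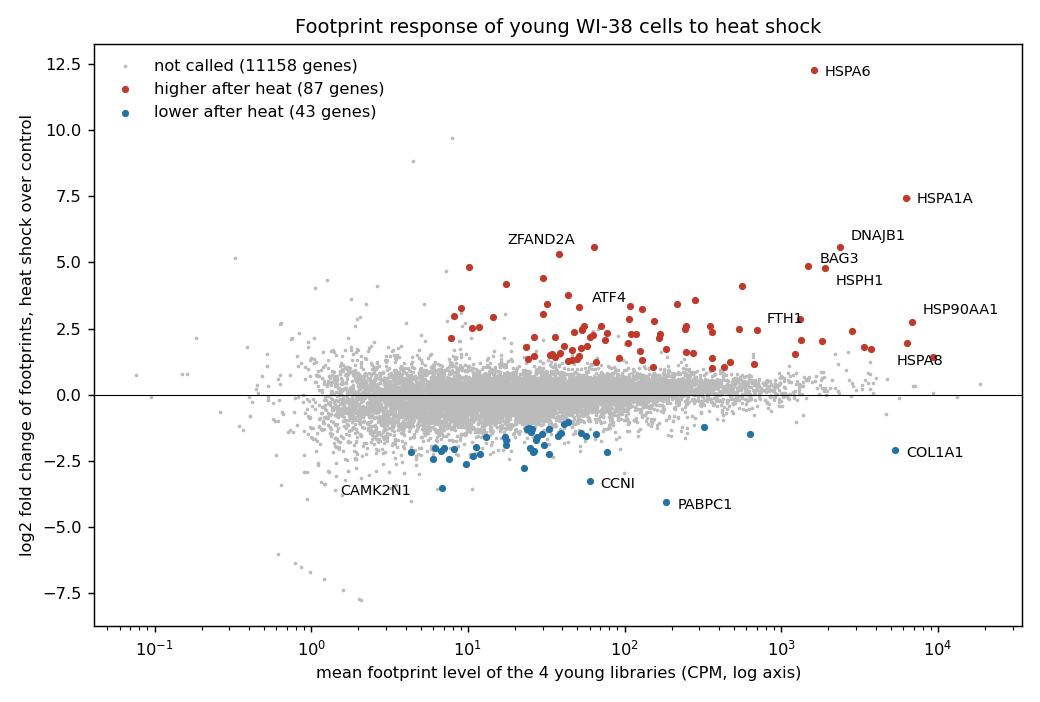
Log2 fold change of footprints in heat-shocked over control young cells (y axis) against the mean CPM of the 4 young libraries (x axis, log), 1 point per tested gene, with the 87 genes that rose in red and the 43 that fell in blue. HSPA6, HSPA1A and DNAJB1 lie farthest up and PABPC1 farthest down among the coloured points.

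The largest rises were of chaperones of the cytosol. Of 60 genes in 5 lists (HSP70 and HSP110, HSP40, HSP90 with its co-chaperones, small heat shock proteins and BAG proteins), 57 were tested, 20 rose, 1 fell and 36 did not pass. The background share of genes that rose was 0.771%. The median log2 change of the 57 was 0.50. Each of the 5 lists had members that rose and members that did not pass, and the latter are not shown to be unchanged. Together the lists held 7.46% and 7.89% of footprints after heat and 1.28% and 1.29% in control. With 2 libraries against 2, an exact permutation test of such a share cannot give a two-sided p under 0.333. With the control pair as 1 sample, 10 of the 20 still passed. The 2 heat libraries differed in which of the 20 was higher: 11 were higher in heat replicate 1 and 9 in heat replicate 2.

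HSP70 proteins bind unfolded chains with the help of J-domain partners, and HSP110 proteins reload them with nucleotide. In this list 6 of the 11 tested members rose, with a median log2 change of 3.31. HSPA6, an HSP70 that human cells make almost only under stress, had 2313 and 4148 CPM after heat and 1.25 and 0.0971 CPM in control, where it was covered by 11 and 1 counts. The groups were far apart, and the fitted log2 change of 12.26 ± 0.74 (SE; adjusted p = 0.000183, edgeR) rests on those few control counts. HSPA1A, the classic inducible HSP70, had 13156 and 11584 CPM after heat and 48.1 and 93.2 CPM in control. Both heat libraries exceeded both controls, with a log2 change of 7.45 ± 0.52 (adjusted p = 0.000358, edgeR). HSPA1B encodes nearly the same protein and shares reads with HSPA1A: it had 12005 and 13948 CPM after heat and 99.8 and 48.7 CPM in control, with a log2 change of 7.45 ± 1.49 that did not pass (adjusted p = 0.0560, edgeR). The counter's split between these copies varied between libraries, so their sum is steadier. The sum was 25160 and 25532 CPM after heat and 148 and 142 CPM in control, a ratio of 175. In share of footprints the pair held 2.26% and 2.48% after heat and 0.0167% and 0.0160% in control.

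HSPH1, the inducible HSP110, had 4045 and 3310 CPM after heat and 130 and 137 CPM in control, a log2 change of 4.78 ± 0.27 (adjusted p = 0.000183, edgeR). Its relative HSPA4L rose by 3.31 ± 0.33, and HSPA1L rose by 5.33 ± 0.74 but did not pass with the control pair as 1 sample. HSPA1L lies beside HSPA1A on chromosome 6 and resembles it closely, so some of its reads may belong to its neighbour. HSPA8, the constitutive HSP70, was already abundant: it had 11142 and 9098 CPM after heat and 2638 and 2604 CPM in control. All 4 values show the same order, heat above control, but the log2 change of 1.95 ± 0.24 was the smallest of the 6 that rose (adjusted p = 0.00557, and 0.101 with the control pair as 1 sample, edgeR). By mean TPM, HSPA1B and HSPA1A were the 12th and 13th highest of the tested genes after heat, against ranks 3395 and 3512 in control.

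Promoter sequence is shown for the chaperone genes with the largest rises whose promoters hold a heat shock element, since that is the element through which HSF1 acts. RefSeq promoters (GRCh38.p14; 250 bases before to 50 after the start) matched 18 of the 20 chaperone genes that rose, and 8 of these hold GAANNTTC or TTCNNGAA, 2 adjacent inverted repeats. Each of these letter strings reads the same on both strands, and overlapping matches were allowed. The element occurs in 13.7% of the 27305 promoters in the table, in 10.0% of those of tested genes, in 25.4% of 71 matched for genes that rose and in 5.88% of 34 for genes that fell. The same strings extended by a further inverted block at the same spacing give 3 blocks that follow each other. They occur in 0.487% of all promoters and in 0.319% of those of tested genes. Among genes that rose they occur in 5 of 71 (7.04%), and among genes that fell in 0 of 34. A match is a description of the letters and not proof of a bound site. No match was found in these windows of DNAJB1, BAG3, DNAJA4, HSPH1 or DNAJB4. Each sequence runs 5′ to 3′ on the gene's strand, 58 bases, with capitals for the GAA and TTC blocks of the element.
HSPA6: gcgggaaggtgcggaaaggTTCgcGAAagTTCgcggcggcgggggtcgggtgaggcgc
HSPA1A: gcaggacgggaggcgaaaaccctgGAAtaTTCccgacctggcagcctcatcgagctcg
HSPA1L: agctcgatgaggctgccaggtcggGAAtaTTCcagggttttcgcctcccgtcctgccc
DNAJA1: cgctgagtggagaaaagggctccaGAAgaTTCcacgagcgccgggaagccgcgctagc
HSPB8: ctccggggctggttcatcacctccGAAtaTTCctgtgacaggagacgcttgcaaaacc
HSPB1: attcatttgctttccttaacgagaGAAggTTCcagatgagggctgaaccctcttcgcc
The HSPA6 stretch lies at chr1:161524447-161524504 on the plus strand and carries 3 successive blocks. The HSPA1A stretch (chr6:31815413-31815470, plus) and the HSPA1L stretch (chr6:31815411-31815468, minus) are the 2 strands of a single element between the divergent genes. That element is counted for each of the 2 genes. The others lie at chr9:33025051-33025108 for DNAJA1, chr12:119178819-119178876 for HSPB8 and chr7:76302467-76302524 for HSPB1, all on the plus strand.

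J-domain proteins of the HSP40 family hand unfolded chains to HSP70. Of 17 tested, 4 rose and none fell. DNAJB1, the main stress-inducible partner of HSP70, had 3305 and 6029 CPM after heat and 99.3 and 95.3 CPM in control, a log2 change of 5.58 ± 0.34 (adjusted p = 0.000183, edgeR). DNAJA1 had 2889 and 1711 CPM after heat and 312 and 329 CPM in control. Heat replicate 2 was the higher one for DNAJB1 and the lower one for DNAJA1, and for both genes the groups stayed apart. DNAJB4 rose by 4.11 ± 0.31 and DNAJA4 by 4.83 ± 0.62. DNAJA4 rested on few counts, 76 and 126 after heat and 3 and 10 in control, and it was the 1 of these 4 that did not pass with the control pair as 1 sample. The other 13 members did not pass, and the list's median was 0.21.

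HSP90 matures kinases and steroid receptors together with a set of co-chaperones, and 6 of the 16 tested genes of this list rose. HSP90AA1, the inducible form, had 14269 and 9600 CPM after heat and 1734 and 1796 CPM in control, a log2 change of 2.76 ± 0.33 (adjusted p = 0.00540, edgeR). The constitutive form HSP90AB1 rose by 1.81 ± 0.22. Among co-chaperones, FKBP4, a prolyl isomerase of receptor complexes, rose by 2.61 ± 0.21. AHSA1, which speeds the ATPase of HSP90, rose by 1.57 ± 0.20, STIP1, which links HSP70 to HSP90, by 1.22 ± 0.21, and CHORDC1, an HSP90-binding protein, by 1.66 ± 0.27. Of these 6, FKBP4 alone passed with the control pair as 1 sample.

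Small heat shock proteins hold unfolded proteins without using ATP. CRYAB, alpha-B crystallin, had 414 and 629 CPM after heat and 45.8 and 42.4 CPM in control, a log2 change of 3.56 ± 0.36 (adjusted p = 0.00206, edgeR). HSPB1, known as HSP27, had 3428 and 6060 CPM after heat and 880 and 889 CPM in control, and HSPB8 68.3 and 113 CPM after heat and 17.7 and 15.8 CPM in control. All 3 were higher in heat replicate 2 than in heat replicate 1, and all heat values lay above the controls. CRYAB passed with the control pair as 1 sample, and HSPB1 and HSPB8 did not (adjusted p = 0.221 and 0.0729, edgeR). The other 4 tested members did not pass. BAG proteins release nucleotide from HSP70. BAG3, which works with HSPB8 in the removal of damaged proteins, had 2201 and 3566 CPM after heat and 101 and 98.0 CPM in control, a log2 change of 4.86 ± 0.29. BAG1 was the 1 chaperone-list member that fell: it had 6.46 and 6.48 CPM after heat and 20.2 and 18.8 CPM in control, a log2 change of −1.59 ± 0.28 (adjusted p = 0.0329, and 0.389 with the control pair as 1 sample, edgeR).

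**Figure D2:**
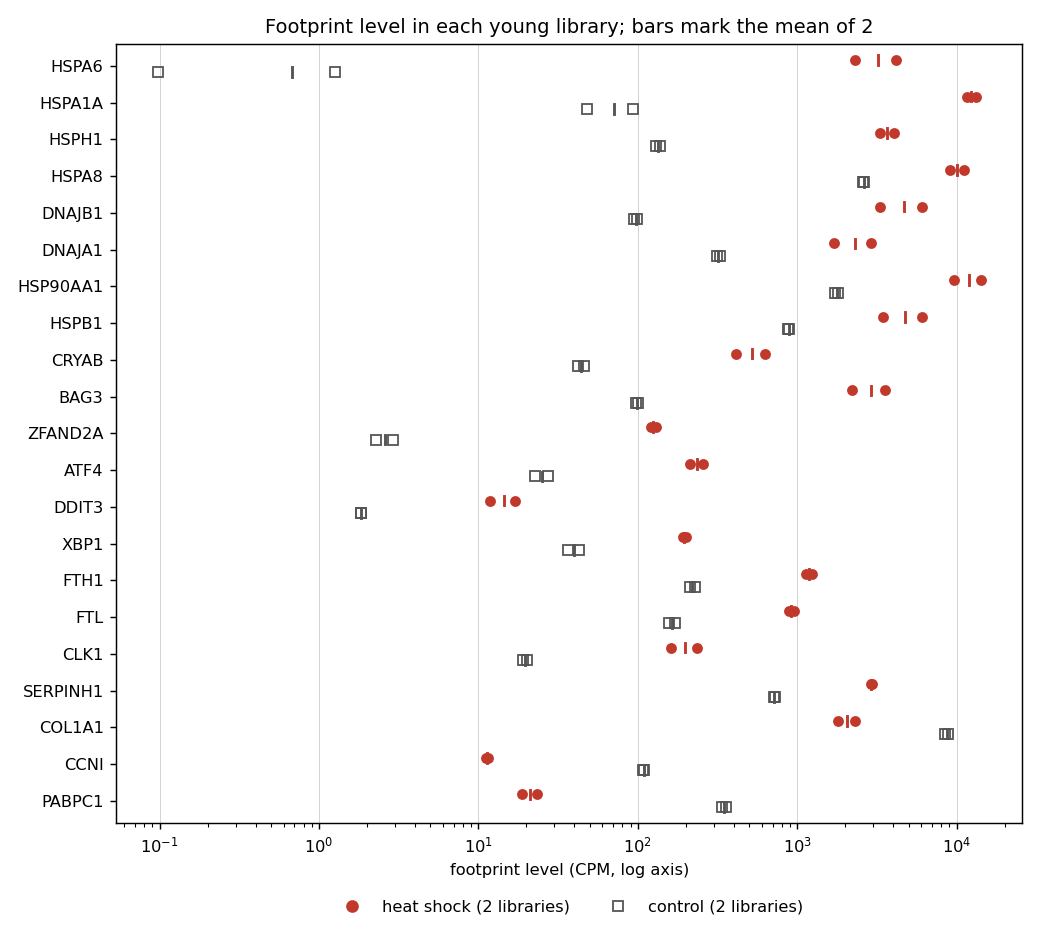
Footprint level in CPM (x axis, log) in each of the 2 heat-shocked libraries (red circles) and 2 control libraries (open squares) for 21 genes, with short bars at the mean of each pair. All 21 were picked from the called genes, none of which overlaps between the groups, against 59.0% without overlap among all tested genes. HSPA6 control values lie lowest at 1.25 and 0.0971 CPM.

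Few genes passed in the remaining chaperone lists. TRiC and prefoldin, which fold actin and tubulin, had 14 tested genes, none of which passed, with a median log2 change of 0.48. In mitochondria 1 of 15 rose, HSPD1, the chaperonin HSP60, with 2898 and 1444 CPM after heat and 485 and 542 CPM in control (log2 change 2.08 ± 0.40, adjusted p = 0.0483, edgeR). Heat replicate 1 was the higher library for HSPD1, and both lay above the controls. HSPE1, its partner HSP10, had a log2 change of 1.13 ± 0.22 and just missed the threshold (adjusted p = 0.0503, edgeR). MRPL18, a mitochondrial ribosomal protein with a known heat-induced cytosolic form, was the 1 of 76 such proteins that passed, with 282 and 257 CPM after heat and 59.9 and 62.5 CPM in control. In the endoplasmic reticulum, HSPA5, its HSP70, had 6541 and 4863 CPM after heat and 1758 and 1717 CPM in control, a log2 change of 1.71 ± 0.20 (adjusted p = 0.00480, edgeR). The other 21 chaperones and disulfide isomerases of that list did not pass, with a list median of 0.50. HSPD1, MRPL18 and HSPA5 did not pass with the control pair as 1 sample (adjusted p = 0.365, 0.174 and 0.106, edgeR).

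Genes of the unfolded protein response and the integrated stress response rose in part. XBP1, a transcription factor whose mRNA is spliced when proteins misfold in the endoplasmic reticulum, had 192 and 199 CPM after heat and 42.9 and 36.7 CPM in control, a log2 change of 2.30 ± 0.21 (adjusted p = 0.00106, edgeR). HERPUD1, which serves the disposal of misfolded proteins there, rose by 2.60 ± 0.37, and the other 16 tested genes of the list did not pass. The integrated stress response phosphorylates the initiation factor eIF2, which lowers initiation in general and raises it on mRNAs with certain upstream reading frames, such as ATF4. ATF4 had 213 and 257 CPM after heat and 27.2 and 22.7 CPM in control, a log2 change of 3.23 ± 0.33 (adjusted p = 0.00206, and 0.0304 with the control pair as 1 sample, edgeR). DDIT3, known as CHOP, rose by 2.96 ± 0.39 and PPP1R15A, which guides the phosphatase of eIF2, by 2.84 ± 0.44. For PPP1R15A the heat libraries stood apart, at 272 and 103 CPM, against 26.1 and 26.2 CPM in control. These 3 were the members of 12 that passed, with a list median of 1.01. With the control pair as 1 sample XBP1 and ATF4 passed, and HERPUD1, DDIT3 and PPP1R15A did not. Of 23 ATF4 targets for amino acid supply SLC3A2 alone rose, by 1.63 ± 0.27, and it did not pass with the control pair as 1 sample. None of 20 aminoacyl-tRNA synthetases passed.

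Ferritin stores iron, and its synthesis is set by proteins that grip a hairpin in the leader of the ferritin mRNAs, the iron-responsive element. Its loop CAGTG and the unpaired C before the upper stem are shown here because both ferritin genes rose. The 30-base stretches come from GENCODE v29 leaders on GRCh38, with the C and the first 5 loop bases in capitals.
FTH1: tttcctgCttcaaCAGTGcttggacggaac
FTL: tctcttgCttcaaCAGTGtttggacggaac
They lie in 5′ UTRs at chr11:61967574-61967603 (FTH1, minus strand) and chr19:48965334-48965363 (FTL, plus strand). A search of leaders on the sense strand for a C, 5 bases, CAGTG, 1 base and 5 bases that pair with the first 5 found 31 of 18749 genes (0.165%), of which 17 were tested. Among these 17, FTH1 and FTL rose and none fell.

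FTH1, the ferritin heavy chain, had 1229 and 1141 CPM after heat and 212 and 228 CPM in control, a log2 change of 2.43 ± 0.18 (adjusted p = 0.000447, edgeR). FTL, the light chain, had 885 and 949 CPM after heat and 158 and 170 CPM in control, a log2 change of 2.48 ± 0.24. EPAS1, the hypoxia factor HIF-2 alpha whose leader is also known to hold such an element, had 329 and 231 CPM after heat and 58.1 and 57.4 CPM in control, a log2 change of 2.28 ± 0.27. The replicates of the ferritins lay within a narrow band in both groups. With the control pair as 1 sample FTH1 and FTL passed and EPAS1 did not (adjusted p = 0.0784, edgeR). These were 3 of 8 tested iron genes, whose median was 0.84. Among 20 targets of the oxidative stress factor NRF2 none passed; HMOX1, heme oxygenase, had a log2 change of 1.48 ± 0.35 (adjusted p = 0.0875, edgeR).

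**Figure D3:**
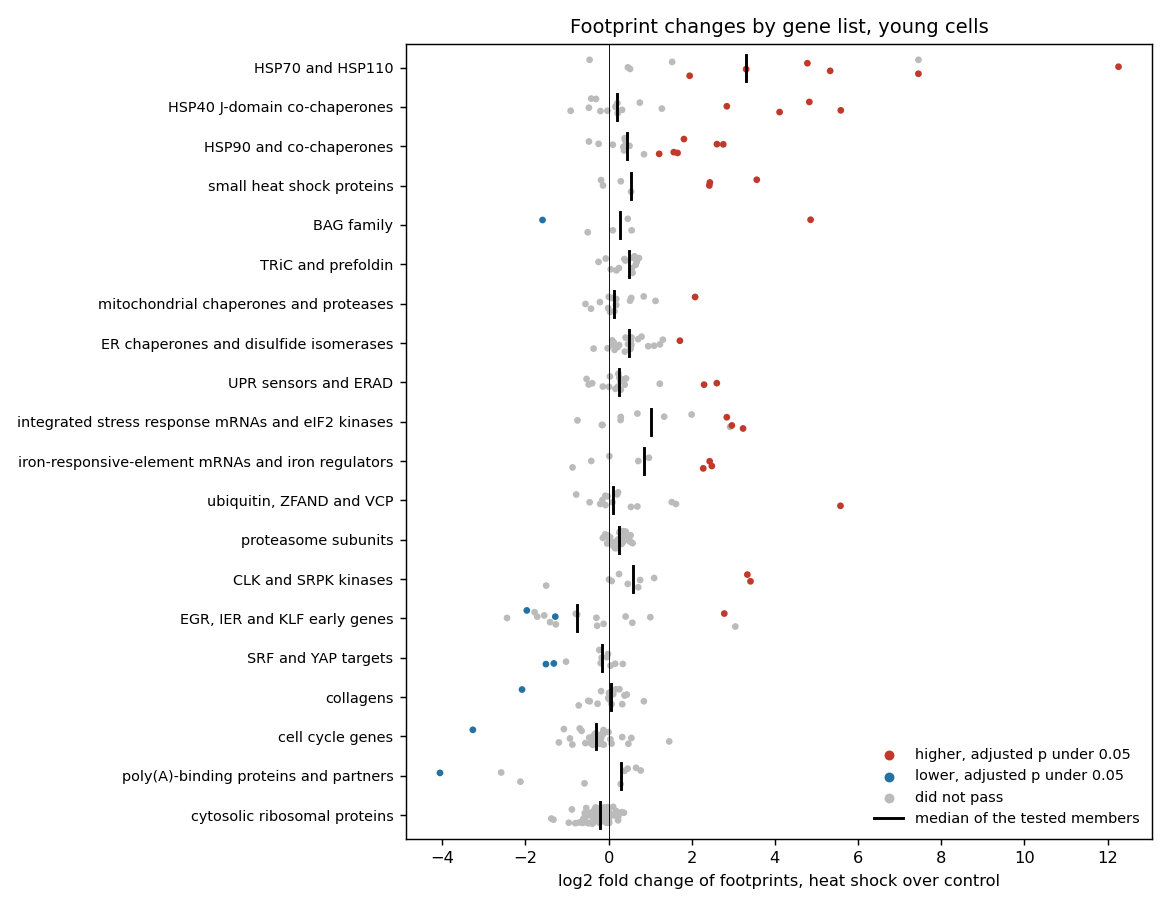
Log2 fold change of footprints in heat-shocked over control young cells (x axis) for the tested members of 20 gene lists, with genes that rose in red, genes that fell in blue, others in grey and the list median as a black bar. Red points reach 12.26 in the HSP70 list, while the 79 ribosomal protein genes are all grey around a median of −0.20.

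Protein disposal, splicing and signalling genes were also among the rises. ZFAND2A, also called AIRAP, which acts with the proteasome under stress, had 130 and 121 CPM after heat and 2.28 and 2.91 CPM in control, a log2 change of 5.58 ± 0.47 (adjusted p = 0.000820, edgeR). UBB, a polyubiquitin gene, did not pass (adjusted p = 0.0963, edgeR). None of 32 proteasome subunits passed, with a median of 0.25. CLK1 and CLK4 are kinases of SR splicing factors, and CLK1 is known to be held in the nucleus as an unspliced mRNA that heat releases. CLK1 had 234 and 162 CPM after heat and 20.0 and 19.1 CPM in control, a log2 change of 3.34 ± 0.53, and CLK4 rose by 3.41 ± 0.44. Of 13 SR factors SRSF11 alone rose, by 1.03 ± 0.18. RSRP1, an arginine- and serine-rich protein, had 34.2 and 32.4 CPM after heat and 2.16 and 1.46 CPM in control, a log2 change of 4.20 ± 0.34. Among the 15 largest rises outside the lists were DEDD2, a death-effector-domain protein, at 4.41 ± 0.31, RGS2, a regulator of G-protein signalling, at 3.76 ± 0.34, and FAM46A at 3.43 ± 0.29. Of these, RSRP1, DEDD2, RGS2, FAM46A and ZFAND2A passed with the control pair as 1 sample, and CLK1, CLK4 and SRSF11 did not.

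Early-response transcription genes went both ways. Of 18 tested EGR, IER and KLF genes IER5 rose, with 275 and 266 CPM after heat and 36.5 and 42.2 CPM in control (log2 change 2.78 ± 0.25, adjusted p = 0.00116, edgeR). In the same list KLF2, an endothelial and quiescence-related factor, fell by 1.97 ± 0.35 on the log2 scale, and BTG1, an antiproliferative gene, by 1.28 ± 0.24. KLF3, which is not in that list, rose by 1.84 ± 0.35 (adjusted p = 0.0466, edgeR). FOSL2, an AP-1 subunit, rose by 1.68 ± 0.28 and was the 1 of 9 AP-1 and ATF3 genes that passed. The largest log2 change of that list, 4.69 in another member, did not pass, and the list median was −0.47. SRF, which drives serum- and actin-responsive genes, had 19.2 and 18.7 CPM after heat and 52.2 and 42.2 CPM in control, a log2 change of −1.32 ± 0.23. CYR61, a secreted target of SRF and YAP, had 252 and 402 CPM after heat and 966 and 892 CPM in control, a log2 change of −1.51 ± 0.27. Of the genes named in this paragraph, IER5 alone passed with the control pair as 1 sample.

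PABPC1 fell most. It coats the poly(A) tail and supports initiation, and its mRNA begins with the oligopyrimidine tract shared by ribosomal protein mRNAs. It had 23.3 and 18.7 CPM after heat and 359 and 340 CPM in control, a log2 change of −4.06 ± 0.42 (adjusted p = 0.00228, and 0.0127 with the control pair as 1 sample, edgeR). The groups were far apart, with a ratio of mean CPM of 0.0602. Its relative PABPC4 had 20.0 and 18.7 CPM after heat and 88.4 and 79.9 CPM in control, and its log2 change of −2.12 ± 0.44 did not pass (adjusted p = 0.0579, edgeR). The other 7 tested genes of the poly(A)-binding list did not pass. None of 79 ribosomal proteins passed, and their log2 changes ran from −1.38 to 0.37 with a median of −0.20. Pseudogene copies may share their reads. The median was −0.33 without heat replicate 1 and −0.16 without heat replicate 2. Their summed share of footprints was 4.22% and 3.98% after heat and 5.67% and 5.72% in control. Shares lack the trimmed-mean scaling of the log2 changes. With library size alone the median of all genes was itself lower after heat, so the 2 scales are not alike. In RNA 78 of the 79 had a change above 0, against 6728 of the 13177 genes tested there. The footprint change minus the RNA change was below 0 for 77, against 5379 of the 11166 genes tested in both assays. None of the 79 passed the test of that difference, with 0 called. Among 17 tested genes of a list of other mRNAs with such tracts and elongation factors, PABPC1 alone passed, and the median was 0.12.

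CCNI, the atypical cyclin I, had 11.5 and 11.1 CPM after heat and 108 and 109 CPM in control, a log2 change of −3.27 ± 0.38 (adjusted p = 0.00445, and 0.0292 with the control pair as 1 sample, edgeR). It was the 1 of 34 genes of the cell cycle list that passed. CDKN2C, a CDK inhibitor outside that list, had 14.4 and 18.5 CPM after heat and 2.05 and 1.36 CPM in control. Its log2 change was 3.27 ± 0.36 (adjusted p = 0.00330, edgeR), and it did not pass with the control pair as 1 sample. CAMK2N1, an inhibitor of the kinase CaMKII, had 1.04 and 1.11 CPM after heat, covered by 5 and 6 counts, and 12.1 and 13 CPM in control (log2 change −3.52 ± 0.44). Both replicates of each group lay close together for CCNI and CAMK2N1. Further falls among the 15 largest were SBF1 at −2.78 ± 0.39, ELMSAN1 at −2.61 ± 0.37, ETAA1 at −2.44 ± 0.38, ZBTB9 at −2.44 ± 0.46 and CTDP1 at −2.34 ± 0.43. HPS6, RBM5, TBX2, N4BP1, SKI and CENPC fell by 2.26, 2.25, 2.18, 2.16, 2.15 and 2.14 on the log2 scale. RBM5 is a splicing regulator, TBX2 a T-box repressor and SKI a repressor of TGF-beta signalling. SESN1, a p53 target of the sestrin family, fell by 2.06 ± 0.34, and HMGCS1, an early enzyme of cholesterol synthesis, by 1.48 ± 0.26, each the 1 member of its list that passed. Of the falls in this paragraph, that of CCNI alone passed with the control pair as 1 sample.

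Matrix genes split. COL1A1, the alpha-1 chain of type I collagen, had 1794 and 2289 CPM after heat and 8781 and 8503 CPM in control, a log2 change of −2.08 ± 0.22 (adjusted p = 0.00291, and 0.0304 with the control pair as 1 sample, edgeR). Its partner chain COL1A2 had 3770 and 3267 CPM after heat and 5993 and 5591 CPM in control. Both heat values lay below both controls for COL1A2 too, but its log2 change of −0.72 ± 0.20 did not pass (adjusted p = 0.138, edgeR). No other of the 19 tested collagens passed, and their median was 0.05. SERPINH1, known as HSP47, the collagen chaperone of the endoplasmic reticulum, had 2939 and 2905 CPM after heat and 718 and 722 CPM in control, a log2 change of 2.02 ± 0.18 (adjusted p = 0.000981, edgeR). FN1, fibronectin, had 14246 and 12881 CPM after heat and 5082 and 5074 CPM in control, a log2 change of 1.42 ± 0.24 (adjusted p = 0.0281, and not passed with the control pair as 1 sample, edgeR). The summed share of collagens was 1.71% and 1.79% after heat and 2.99% and 2.83% in control. That of adhesive and elastic matrix proteins was 3.37% and 3.33% after heat and 2.70% and 2.63% in control. These shares too lack the trimmed-mean scaling of the log2 changes. Each also leans on 1 gene. COL1A1 held 8617 and 12364 unscaled counts after heat and 77083 and 87559 in control. FN1 held 68414 and 69580 after heat and 44609 and 52246 in control. No other tested gene of either list passed, so the shares do not show a shift of either class as a whole.

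**Figure D4:**
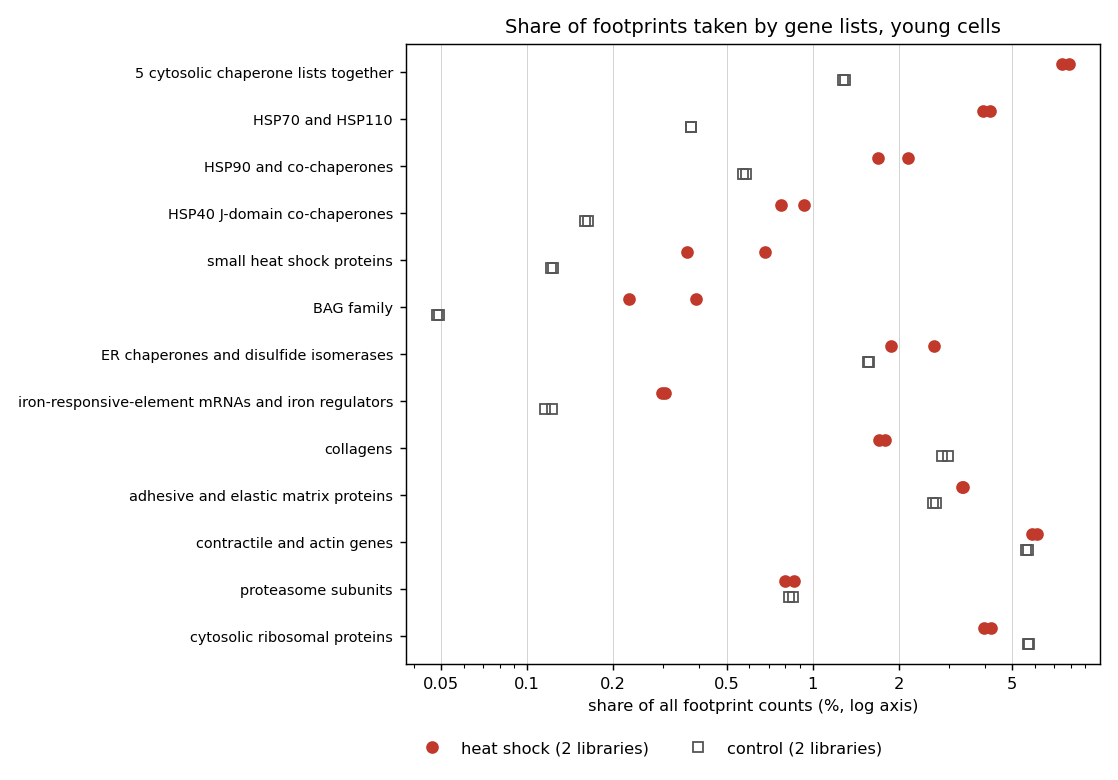
Share of all footprint counts in percent (x axis, log) held by 13 gene lists in each of the 2 heat-shocked libraries (red circles) and 2 control libraries (open squares). The 5 cytosolic chaperone lists together sit at 7.46% and 7.89% after heat and at 1.28% and 1.29% in control, and proteasome subunits overlap between the groups.

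Of the 45 gene lists, 26 had a member that passed and 19 had none. Those with none included translation initiation factors (31 tested), nucleolar ribosome biogenesis factors (29), subunits of oxidative phosphorylation (75), glycolysis enzymes (20), autophagy genes (22), interferon-stimulated genes (16), inflammatory cytokines (15) and metallothioneins (8). Over the 19 lists with none, median log2 changes ran from −0.32 for cold-inducible RNA-binding proteins (2 tested) to 0.52 for glycolysis enzymes. In all, 40 of the 87 genes that rose and 10 of the 43 that fell were in a list, and the other 47 and 33 were in none. Of the most abundant genes, 17 of the 20 highest by mean TPM after heat were also among the 20 highest in control. TMSB10, an actin-binding thymosin, had 19687 and 15722 TPM after heat and 34436 and 34027 TPM in control, the highest of the tested genes in 3 of the 4 libraries. HSPB1, HSPA1B and HSPA1A were the 3 chaperones among the 20 highest after heat, and no gene of these lists was among them in control.

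Next to the footprints, RNA-seq of the same conditions shows how far the mRNA itself changed. RNA-seq called 150 of 13177 genes (1.14%), 88 higher (0.668%) and 62 lower (0.471%), and 11166 genes could be compared in both assays. Of the 87 genes whose footprints rose, 42 also rose in RNA and 85 had the same sign. Of the 43 whose footprints fell, 9 also fell in RNA and 36 had the same sign. Of all 13177 genes tested in RNA, 6728 had a positive and 6448 a negative change. Across the 11166 genes the log2 changes had a Pearson's r of 0.568 and a Spearman's rho of 0.498, a description over genes, which are not independent replicates. Of the 20 cytosolic chaperones whose footprints rose, 15 also rose in RNA and 5 did not pass there: CHORDC1, HSP90AA1, HSPA4L, DNAJA1 and DNAJB4. None of the 20 passed the test of the footprint change minus the RNA change, which ran from −1.10 ± 0.88 for DNAJA4 to 1.39 ± 0.79 for HSPA1L. DNAJB1, for instance, had 6598 and 8147 CPM of RNA after heat and 121 and 155 CPM in control, a log2 change of 5.74 ± 0.27 beside 5.58 in footprints.

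The difference between footprint and RNA change was tested in a fit over both assays, and 10 of 11166 genes passed (0.0896%), 4 higher (0.0358%) and 6 lower (0.0537%). FTH1 had 2601 and 2297 CPM of RNA after heat and 2320 and 2257 CPM in control, so its RNA groups overlapped, and the difference was 2.33 ± 0.26 (adjusted p = 0.00268, edgeR). FTL differed by 2.25 ± 0.30 and EPAS1 by 2.78 ± 0.38, with RNA changes of 0.23 and −0.50. The fourth was ATF5, a translationally controlled relative of ATF4, whose footprints were sparse at 12 and 26 counts after heat and 3 and 6 in control (difference 3.40 ± 0.55). PABPC1 had 827 and 601 CPM of RNA after heat and 726 and 547 CPM in control, and CCNI 142 and 193 CPM of RNA after heat and 118 and 154 CPM in control. In both genes the RNA groups overlapped, with differences of −4.22 ± 0.53 and −3.57 ± 0.48 (adjusted p = 0.00504 and 0.00590, edgeR). CAMK2N1 at −3.38 ± 0.43 and DLG4 at −3.48 ± 0.59 followed. DLG4 had 4 and 2 footprint counts after heat and 46 and 40 in control.

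Another pair of calls is uncertain because reads may be shared with other genes, which was not tested. BOLA2B has a near-identical copy and had 3.19 and 3.47 CPM of RNA after heat and 0 in both controls. NEDD8-MDP1 is a read-through of adjacent genes and had 0 footprint counts in both heat libraries against 20 and 26 in control. With the control pair as 1 sample 5 genes passed: FTH1 higher, and PABPC1, CCNI, CAMK2N1 and BOLA2B lower. Without heat replicate 2 of Ribo-seq 5 passed as well, 3 higher and 2 lower. COL1A1 did not pass: it had a footprint change of −2.08 beside an RNA change of 0.35 and a difference of −2.43 ± 0.59 (adjusted p = 0.314, edgeR). ATF4 (difference 1.97 ± 0.38, adjusted p = 0.0935), ZFAND2A (2.66 ± 0.56, 0.179) and RSRP1 (3.38 ± 0.96, 0.575) did not pass either in the same test with edgeR.

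**Figure D5:**
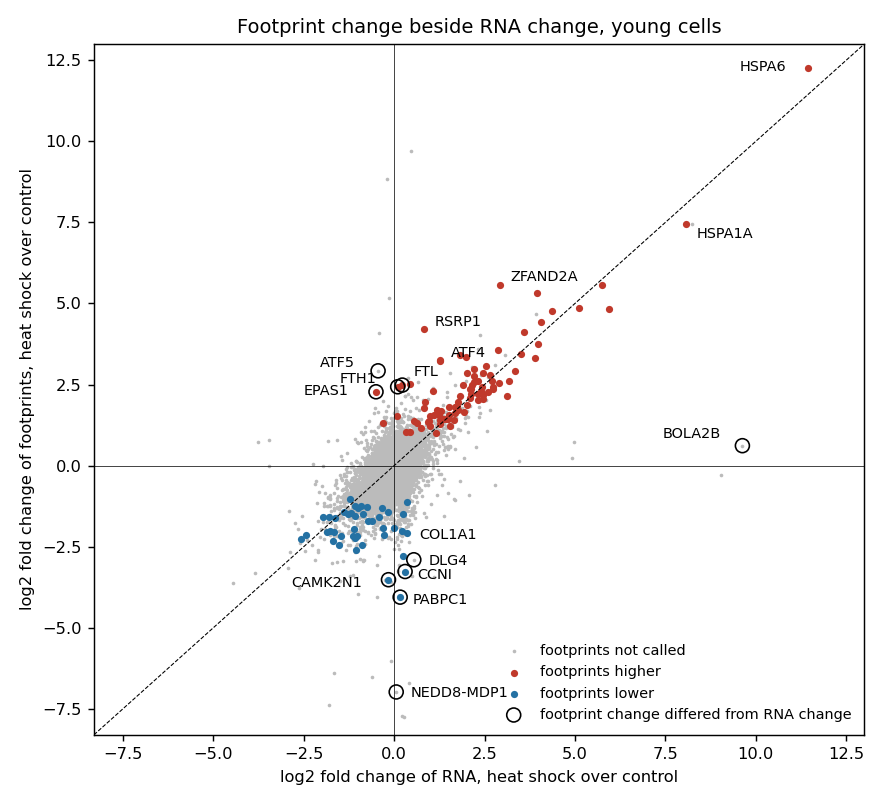
Log2 fold change of footprints (y axis) against that of RNA (x axis), heat-shocked over control young cells, 1 point per gene tested in both assays, with the line of equal change dashed and circles on the 10 genes whose changes differed. The 20 chaperones that rose differ from the dashed line by −1.10 to 1.39, FTH1, FTL and EPAS1 above it near an RNA change of 0, and PABPC1 and CCNI below it.

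Senescent cells were heat shocked in the same way. In senescent footprints 943 genes were called (8.35%), 352 higher and 591 lower. Of all 11288 tested genes, 5827 had a positive and 5457 a negative change there. All 87 genes that rose in young cells had a positive change there and 79 of them were called higher there, where 3.12% of genes were. All 43 that fell had a negative change, and 33 were called lower there, where 5.24% of genes were. Both responses came from 1 fit with a shared spread per gene, so the calls in young and senescent cells are not independent. The test of the difference, senescent minus young, called 0 of 11288 genes with edgeR (0%; 554 at an unadjusted p under 0.05). Among larger differences that did not pass, COL1A1 changed by −3.83 in senescent and −2.08 in young cells (difference −1.75 ± 0.30), and FKBP4 by 1.12 and 2.61 (difference −1.49 ± 0.28), each with an adjusted p of 0.834 in edgeR. Senescent control replicate 2 correlated across genes more closely with the young controls than with its own replicate, at a Pearson's r of 0.991 and 0.990 against 0.979 on log2 CPM.

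Genes that fell had a higher median coding length, which was not tested. The median coding length was 1293 bases for the 87 that rose, 2184 for the 43 that fell and 1437 for all tested genes, from GENCODE v29 for 99.7% of tested genes. Of 5 bins of near-equal size by coding length, the longest held 18 of the 43 falls and 11 of the 87 rises. Across genes, coding length and footprint log2 change had a Spearman's rho of −0.0977, and coding length and RNA change −0.0424. Taken singly, heat replicate 1 had a rho of −0.0214 and heat replicate 2 of −0.152 against the mean control, so the relation with length was weaker in heat replicate 1. Its part in the falls was not tested.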

How the data were processed

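Ribosome footprints (Ribo-seq) and RNA-seq were measured in young and senescent WI-38 cells, heat shocked or control, with 2 libraries in each of 8 groups. Per gene, the authors deposited expected counts from RSEM, which were whole numbers in the files, and TPM, a level scaled by gene length. STAR, RSEM, Bowtie2 and the build hg19 are named in the submitters' processing notes. What each did, their versions and the annotation: not given in the sources used here. Footprints were made with RNase If and a sucrose cushion, and RNA libraries with a TruSeq RNA kit, per the labels' protocols. No molecular identifiers are described, so intervals would cover counting error only.

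Counts were rounded, filtered with filterByExpr, scaled by TMM and tested with edgeR 4.0.16 (quasi-likelihood test, R 4.3.3), with 1 mean per group over all 8 Ribo-seq libraries, which left 4 residual degrees of freedom for the spread. RNA was fitted likewise, and the footprint change minus the RNA change over all 16 libraries. Adjustment was by Benjamini-Hochberg over all genes of a comparison, with a threshold of 0.05. Standard errors are the log2 change divided by the square root of the F statistic, an approximation. CPM are TMM-scaled. The Ribo-seq libraries held 4581141 to 9104077 counts and the RNA-seq libraries 26434514 to 37126871; genes of few counts are measured less precisely.

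The comparison, the gene lists and the alternatives were chosen with earlier results of these data known. Named genes are, among those called and averaging 10 CPM or more in a group, the 15 that rose and the 15 that fell most, up to 5 called members of each list and the highest genes by TPM; not all are named. HSPA1B, HSPE1, UBB, HMOX1, PABPC4, COL1A2, CDKN2C, KLF3 and the genes called for the difference from RNA were named after their values were seen. Alternatives were scaling by relative log expression or by library size alone, no filter on low counts, a minimum of 10 CPM, a replicate block, DESeq2 1.42.0, limma-trend 3.58.1 on log2 TPM with a pseudocount of 1 or 0.1, only the 4 young Ribo-seq libraries, and each library left out. Taking the young controls as 1 sample, leaving out young libraries for the difference from RNA and leaving out heat libraries for the shares were added after the data were seen. The procedure was also run on simulated libraries drawn independently of each other. They do not mimic the close control pair, and no result here rests on them. Promoter sequences came from RefSeq by gene symbol and leaders from GENCODE v29 on GRCh38, another build than the counts, so they were used by name only.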

Additional observations from a re-analysis of the deposited data

How the results depend on the processing

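The number of genes whose footprints changed, 130, was 134 with relative log expression scaling and 127 with a minimum of 10 CPM, and moved to 237 with library size only (68 higher, 169 lower), where the median of all genes lay at −0.28. It was 422 with no filter, 445 with DESeq2, 362 with only the 4 young libraries, 80 and 54 with limma on log2 TPM (pseudocount 1 and 0.1), 27 with the control pair as 1 sample, and 27 to 275 leaving out 1 library. For RNA, 150 became 317 with no filter and 443 with DESeq2, and 33 to 123 leaving out 1 library. For the difference between footprint and RNA change, 10 became 37 with no filter, 5 with the control pair as 1 sample, and 5 to 10 leaving out 1 library. The senescent minus young test called 5 genes with no filter and 0 in every other setting tried. No named gene followed through the settings changed direction. CDKN2C and KLF3 were not followed. With replicate number as a block, counts were 330 for footprints, 1156 for RNA, 57 for the difference and 0 for senescent minus young; the numbers share no stated source, and the deviations of same-numbered libraries correlated between Ribo-seq groups at −0.047 to 0.367 across genes, so no pairing was assumed. The cause of these shifts was not tested. With 2 libraries per group, some changes above the smallest call of 1.01 on the log2 scale did not pass, such as HMOX1 at 1.48 and HSPE1 at 1.13, so a gene that did not pass is not shown to be unchanged.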
